A study of Mus musculus with 14 samples.

Results

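The receptors of the ErbB family and their EGF-family ligands were followed over 12 mammary tumours of Brg1+/- mice. The 10 genes of interest were the 4 receptor genes Egfr, Erbb2, Erbb3 and Erbb4 and the 6 ligand genes Areg, Ereg, Tgfa, Hbegf, Btc and Nrg1. Probes were assigned by the gene symbol in the platform annotation, and 9 of the 10 genes had a probe, of 16879 genes named on the array. No probe carried the symbol Areg, the gene of amphiregulin, so that ligand was not analysed here. The 9 genes were read by 14 probes, 2 each for Erbb3, Erbb4, Ereg, Tgfa and Nrg1 and 1 each for Egfr, Erbb2, Hbegf and Btc.

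All tumours carried the same genotype, a heterozygous state of Brg1 (Smarca4, which encodes a chromatin remodelling ATPase), and no tissue of another genotype was compared. Tumour RNA was labelled with Cy5 and a common mouse reference RNA with Cy3 on each of 14 two-colour arrays. Tumours T172 and T284 had a second array, marked biorep without saying what was repeated, and each other tumour had 1 array. Ages, treatments and strain are not given in the labels, and neither is the meaning of the word MIXED that their titles carry. Whether each tumour came from a separate animal is not given either, so p-values hold for these samples only. The test between tumours sets their differences against the repeat arrays of T172 and T284, moderated over all genes. No spread within a tumour was measured for the others.

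ErbB receptors are tyrosine kinases of the cell surface that work as dimers. EGFR binds TGF-alpha, epiregulin, betacellulin and HB-EGF, ERBB3 and ERBB4 bind neuregulins, ERBB2 has no known ligand of its own, and ERBB3 has little kinase activity and signals through its partners. The ligands are made as membrane precursors that ADAM proteases release, and the activated receptors feed the ERK and PI3K pathways. In the mammary gland the family is known for duct growth and for alveolar development, and ERBB2 is amplified in a share of human breast cancers.

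Every value below is the log2 ratio of tumour over reference, so 1 unit is a doubling and 0 is the level of the reference. The ratio holds no signal level, so a dim probe could not be told from a bright one, and ratios of different genes do not rank their expression. The number of arrays limits the precision. In whole tumours, fewer cells of a type and less RNA per cell cannot be told apart. The array medians lay between 0 and 0.018. The mammary luminal regulator Elf5 lay between 1.77 and 4.83 in 10 tumours but at -0.16 in T646 and -2.23 in T176. The score of 15 measured luminal markers, their mean after removing each gene's mean over tumours, was -3.55 in T176 and -0.17 to 0.88 in the others. T176 therefore stood apart from the other tumours in the luminal score, and results that rest on it are given without it. Not every luminal marker was low there, as Esr1 was highest in T176 (1.27). The basal score of T176, -0.975, lay within the range of the others, with T172 lower at -1.65.

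Egfr and Tgfa, a receptor and one of its ligands, were the pair whose correlation over the tumours was called, as described below. The reference sequence before their annotated starts is shown for that reason, from RefSeq on GRCm38.p6. The stretch before Egfr is chr11:16751953-16752202 on the plus strand and that before Tgfa is chr6:86194972-86195037 on the plus strand. Capitals mark matches to any of 4 motifs searched on both strands, namely GGGCGG (GC box), TGACGTCA (CRE), TGANTCA (AP-1) and GCCNNNGGC (AP-2).
Egfr: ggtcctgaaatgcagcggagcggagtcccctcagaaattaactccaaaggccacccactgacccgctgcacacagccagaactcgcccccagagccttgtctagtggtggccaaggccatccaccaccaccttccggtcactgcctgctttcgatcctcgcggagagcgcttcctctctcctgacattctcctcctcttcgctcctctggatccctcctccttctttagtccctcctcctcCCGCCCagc
Tgfa: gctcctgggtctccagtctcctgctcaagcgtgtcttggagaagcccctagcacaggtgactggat
The 250 bases before Egfr held 1 GC box close to the start and were 60.8% G or C. The 66 bases shown for Tgfa held none of the 4 motifs and were 59.1% G or C. Windows of 300 bases, which reach past the start, held 1 GC box for Egfr, and 2 GC boxes and 2 AP-2 matches for Tgfa. Among 27025 such windows, 35.9% held a GC box, 16.5% an AP-2 match, 7.93% an AP-1 match and 1.88% a CRE. A match is a string of letters and no evidence of binding.

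Of the 9 measured genes, the ligands Hbegf and Nrg1 and the receptor Egfr differed over the tumours beyond the spread of repeat arrays, and the other 6 were not shown to differ. The test was limma's moderated F-test of 12 tumours, adjusted over all 16877 genes tested, at an adjusted p under 0.05. It called 3 of 9 genes (33.3%), where 18.3% of all genes tested were called. The receptors gave 1 of 4 and the ligands 2 of 5. At an adjusted p under 0.01, where 9.35% of all genes passed, Hbegf was the 1 gene left. With a term for a shift shared by the second arrays the same 3 genes were called, beside 42.4% of all genes tested. The median SD over tumours was 0.31 for the 9 genes and 0.39 for all genes, and 4 of the 9 lay above the latter. Hbegf varied more than 96.9% of genes. Tgfa, Ereg and Erbb3, each averaged over 2 probes, had 1 probe with an SD above the all-gene median of 0.386 (0.573, 0.546 and 0.389). The other probe of each lay below it (0.201, 0.167 and 0.259). The low median of the 9 genes thus depends on the averaging of probes.

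**Figure D1:**
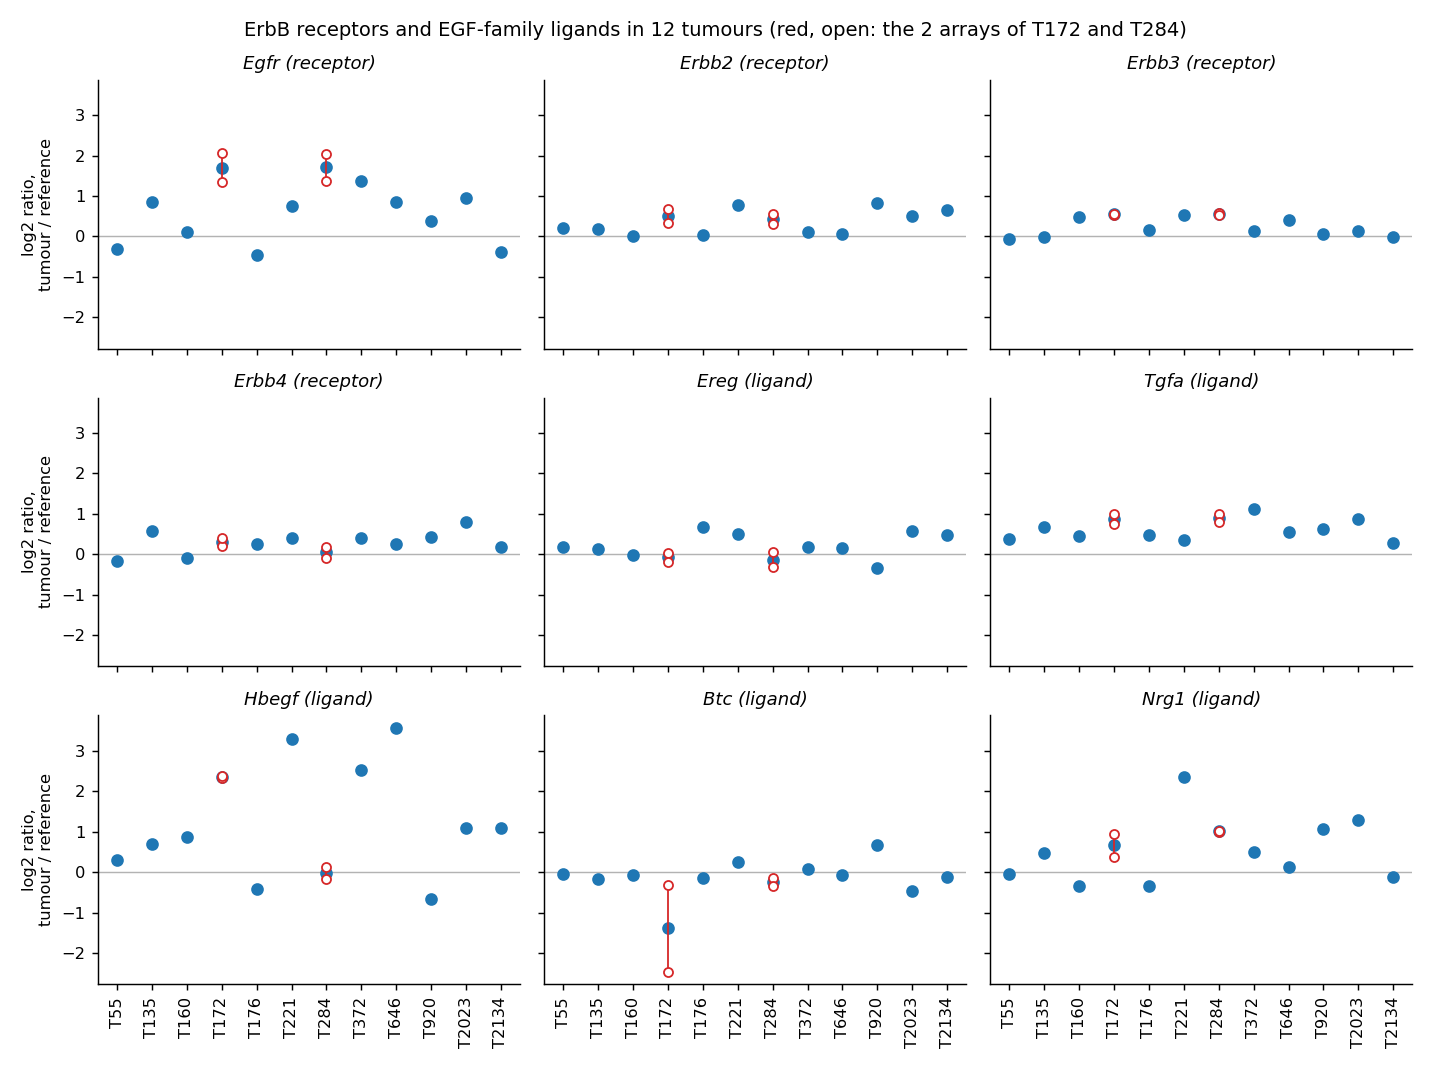
The log2 ratio of tumour over reference (y axis) of 9 genes in each of 12 tumours (x axis), with the mean of both arrays in T172 and T284 as a filled point and the single arrays as open red points. Hbegf spans -0.66 to 3.57, Nrg1 -0.35 to 2.34 and Egfr -0.45 to 1.71, while Btc in T172 rests on arrays at -0.32 and -2.47.

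**Figure D2:**
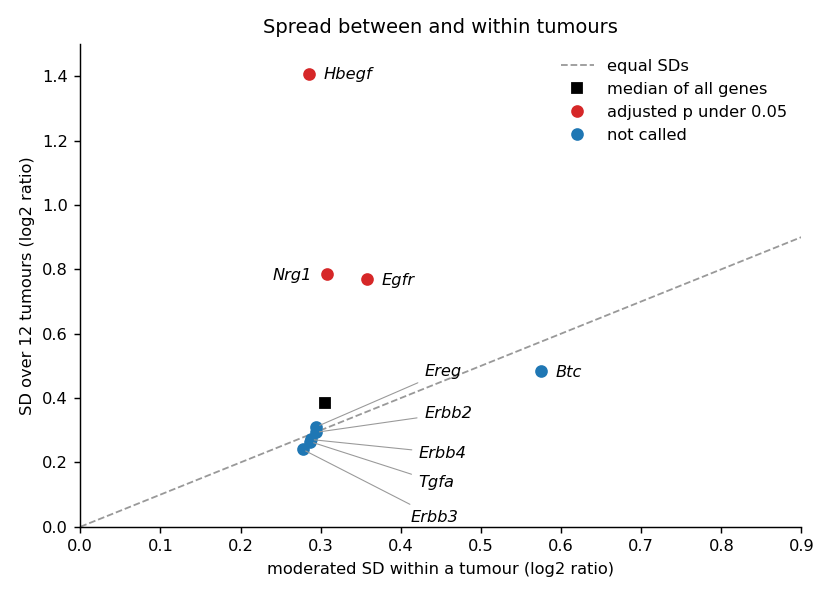
SD over 12 tumours (y axis) against limma's moderated SD within a tumour (x axis), both of log2 ratios, with red points for genes at an adjusted p under 0.05 and a square for the medians of all genes. Hbegf, Nrg1 and Egfr lie well above the line of equal SDs, and the other 6 genes lie near or below it.

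Among the receptors, Egfr varied most. It was highest in T284 (1.71) and T172 (1.70), followed by T372 (1.38), T2023 (0.95), T646 (0.86), T135 (0.85) and T221 (0.75). T920 (0.38) and T160 (0.10) lay lower, and T55 (-0.31), T2134 (-0.37) and T176 (-0.45) lay below the reference. From lowest to highest this was a 4.47-fold range, with a mean of 0.63 ± 0.77 (SD, n = 12). The arrays of T172 stood at 1.35 and 2.06 and those of T284 at 2.04 and 1.38, all above the values of every other tumour except T372.

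Egfr was called between tumours (limma adjusted p = 0.0346). The call was lost without T176 (adjusted p = 0.0562), and also when each probe of the array was tested on its own, where 11.8% of probes passed (adjusted p = 0.0798). No single step in the order of tumours was larger than the 1.14 that 2 single arrays need to differ at the 95% level before adjustment. The extremes were separated, and 24 of 66 pairs of tumours exceeded the difference needed. The tumours with the highest Egfr, T284 and T172, had basal marker scores of -1.56 and -1.65, and T2023 and T135, with the highest basal scores (2.28 and 1.93), held intermediate Egfr. In T176 the luminal score was -3.55 and the mesenchymal score 2.41. The part of these cell types in the Egfr ratio was not tested.

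Erbb2, the receptor known as Neu or HER2, had ratios above 0 in all 12 tumours, as did 9.33% of all genes, and kept within a narrow range. The lowest value of Erbb2 was 0.021 in T160, next to T176 (0.028) and T646 (0.053), all close to the reference. Its median was 0.33 and its highest value 0.82 in T920, a 1.74-fold range (mean 0.36 ± 0.29, SD, n = 12). The SD between tumours was 0.29, as was limma's moderated SD within a tumour, which is drawn toward the SD of all genes. Second minus first array was 0.343 in T172 and -0.245 in T284. Erbb2 was not called (limma adjusted p = 0.706). None of 66 pairs of tumours exceeded the difference needed. No tumour was called for Erbb2 against the other 11.

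Erbb3, the partner receptor with a weak kinase, had the lowest spread of the 9 genes (SD 0.24). It ranged from -0.054 in T55 through a median of 0.15 to 0.56 in T284 and was not called (limma adjusted p = 0.743). In T176, where the luminal score was lowest, Erbb3 stood at 0.16, near its median. Its probes hardly followed each other, with r = 0.063 over 12 tumours as a description. Probe 11862 was highest in T221 (1.22) and probe 9276 lowest there (-0.16), so the mean of both hides opposite values in that tumour.

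Erbb4, the neuregulin receptor of alveolar development, ranged from -0.16 in T55 through 0.28 to 0.81 in T2023 (mean 0.28 ± 0.27, SD, n = 12; limma adjusted p = 0.741). Its probes correlated at r = 0.338 over the tumours, and both were highest in T2023, at 0.94 and 0.68. They disagreed in T176, at 0.73 and -0.21, and in T646, at 0.76 and -0.24.

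Among the ligands, Hbegf showed the widest range. Hbegf encodes heparin-binding EGF-like growth factor, which binds EGFR and ERBB4. It was high in T646 (3.57), T221 (3.28), T372 (2.51) and T172 (2.35), with T172 at 2.33 and 2.37 on its 2 arrays. T2134 (1.09), T2023 (1.08), T160 (0.86), T135 (0.70) and T55 (0.31) came next, and T284 (-0.03), T176 (-0.42) and T920 (-0.66) lay below the reference. The extremes differed 18.8-fold, with a mean of 1.22 ± 1.41 (SD, n = 12).

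The moderated SD of Hbegf within a tumour was 0.29, and the gene was called (limma adjusted p = 0.000602). The call held under each scaling, probe choice, prior and filter tried and at a threshold of 0.01, with adjusted p between 3.56e-06 and 0.000957 when each array was left out. The step from T2134 to T172, 1.26, was the 1 gap of 11 between neighbours that exceeded the difference needed, 0.79, and 47 of 66 pairs of tumours did. The 4 tumours with the highest Hbegf lay at both ends of the squamous score. These scores were -1.76 (T646), 2.84 (T221), 1.83 (T372) and -2.22 (T172), and their macrophage scores 1.29, 0.55, 0.54 and -0.72. Of the macrophage list 8 of 9 markers were measured, 6 of them called, and the scores spanned -1.14 in T176 to 1.29. Their part in the Hbegf ratio was not tested.

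Nrg1, the gene of neuregulin 1, was the other called ligand. It was highest in T221 (2.34), followed by T2023 (1.28), T920 (1.06), T284 (1.01), T172 (0.66), T372 (0.50) and T135 (0.48). T646 (0.13) lay near the reference, and T55 (-0.039), T2134 (-0.12), T160 (-0.34) and T176 (-0.35) lay below it. The mean was 0.55 ± 0.79 (SD, n = 12) and the range 6.45-fold. The step from T2023 to T221, 1.06, was the 1 gap between neighbours beyond the difference needed, 0.98.

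The call of Nrg1 (limma adjusted p = 0.0263) rested on T221 and was lost without it (adjusted p = 0.105). Both probes were highest in T221 and lowest in T176, and they correlated at r = 0.837 over the tumours as a description. Probe 7955 ranged from -0.22 to 3.12 and was called on its own (limma adjusted p = 0.0416), and probe 13376 ranged from -0.48 to 1.56 and was not (adjusted p = 0.0860). T221 also held the highest adipocyte score, 2.01, the highest endothelial score, 0.88, and a squamous score of 2.84. Of 6 adipocyte markers measured 5 were called, and of 7 endothelial markers 3. Their part in the Nrg1 ratio was not tested. The nerve score, of 4 measured markers of 6, was -0.36 in T221, where its markers went different ways. Ngfr was highest there (1.06) and Mbp (-2.245) lay above its median of -2.565. Sox10 (0.89) and S100b (-1.03) lay below their medians of 2.56 and -0.18. The part of nerve in the Nrg1 ratio was not tested either.

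Tgfa, the gene of TGF-alpha, lay above the reference in all 12 tumours, as did 9.33% of all genes. It ranged from 0.27 in T2134 through a median of 0.60 to 1.12 in T372 (limma adjusted p = 0.728). Its probes differed. Probe 857 ranged from 0.31 in T2134 to 1.95 in T372 (SD 0.57) and probe 7250 from -0.23 in T135 to 0.55 in T920 (SD 0.20). They correlated at r = -0.387 over the tumours, and neither was called on its own (limma adjusted p = 0.965 for probe 7250 and 0.100 for the other).

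Ereg, the gene of epiregulin, ranged from -0.34 in T920 through 0.16 to 0.68 in T176 (limma adjusted p = 0.595). Probe 20013 carried this spread, from -1.01 in T920 to 1.10 in T176, and probe 6508 kept between 0.061 and 0.57. T176 thus held the highest Ereg and the lowest Egfr and Nrg1 of the 12 tumours, although 1 of 66 pairs of tumours exceeded the difference needed for Ereg.

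Btc, the gene of betacellulin, lay below the reference in 9 of 12 tumours, with a median of -0.096 and a highest value of 0.68 in T920. Its lowest value, -1.39 in T172, was the mean of arrays at -0.32 and -2.47, so its arrays lay farther apart than any of the other 11 tumours did from each other. The moderated SD within a tumour was 0.57 and exceeded the SD over tumours, 0.48, and the gene was not called (limma adjusted p = 0.670). Without the first array of T172 it was called (adjusted p = 0.00750), as were 23.8% of all genes, so the result for Btc turned on that array.

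No single tumour stood apart in any of the 9 genes when it was compared with the mean of the other 11. In limma's moderated test, adjusted within each tumour over all genes, 0 of 108 combinations were called, with 3 at an unadjusted p under 0.05 and adjusted p of 0.325 or more. Among all genes 2.48% were called higher and 1.35% lower in T176, the most of any tumour. Genes called higher made up 0.113% in T221, 0.0831% in T2134, 0.083% in T920, 0.0593% in T646, 0.0535% in T372, 0.0533% in T172, 0.0415% in T284, 0.0297% in T135, 0.0238% in T55, 0.0119% in T2023 and 0% in T160. Genes called lower made up 0.136% in T920, 0.0535% in T55, 0.0356% in T646, 0.0297% in T135, 0.0296% in T221, 0.0238% in T2023, 0.0237% in T2134, 0.0178% in T284, 0.00594% in T372, 0.00593% in T160 and 0% in T172. Calls were thus rare for any gene in this comparison outside T176. The 3 with the lowest unadjusted p were, as tumour minus the others, Btc in T172 (-1.36 ± 0.32, SE, from -1.39 against -0.033; adjusted p = 0.468), Nrg1 in T221 (1.95 ± 0.56, adjusted p = 0.325) and Hbegf in T646 (2.57 ± 1.17, adjusted p = 0.878). For Egfr in T176 the difference was -1.18 ± 0.69 (adjusted p = 0.556). On simulated data this comparison recovered 63 of 100 simulated shifts of 2 units and 99 of 100 of 4 units. The simulated SD between tumours was capped below that of Hbegf (1.41), Nrg1 (0.79) and Egfr (0.77). These rates therefore do not hold for those 3 genes.

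Receptors and ligands were then compared over the 12 tumours. Of 26 relations listed, the 5 with Areg could not be computed, and p-values were adjusted over the remaining 21. Tgfa and Egfr were correlated over the tumours, and this was the 1 relation called. Tgfa itself was not shown to differ between tumours. Its SD over tumours was 0.26, beside limma's moderated SD within a tumour of 0.29, which is drawn toward the SD of all genes. Repeat arrays of a tumour also moved both genes the same way. Second minus first array was 0.718 for Egfr and 0.259 for Tgfa in T172, and -0.66 and -0.188 in T284. The part of such array differences in the relation was not tested. Pearson's r was 0.813 (permutation p = 0.00161, adjusted p = 0.0338) and Spearman's rho 0.832 (permutation p = 0.00136, adjusted p = 0.0286). Without T2134 and T372, the tumours farthest from the median of Tgfa, r was 0.783 (permutation p = 0.00848).

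T372, T284, T172 and T2023 were the 4 highest in both genes, and T2134 and T55 were low in both. The relation came from 1 of the Tgfa probes. Probe 857 correlated with Egfr at r = 0.824 (rho = 0.769; permutation p = 0.00179 and 0.00523, adjusted over 2 probes 0.00358 and 0.0105), and probe 7250 at r = -0.209 (rho = 0.007; permutation p = 0.524 and 0.991, the same after adjustment). These probe values were computed after the pooled relation was seen. Without the 2 tumours farthest from the median of the probe, r was 0.749 and 0.146. The adjusted call was also narrow. It was lost with quantile normalization (r = 0.717, adjusted p = 0.205) and in 7 of 14 settings that left out 1 array, where r stayed between 0.774 and 0.884. These 7 were the settings without T135 (adjusted p = 0.0720), T160 (0.0756), T2134 (0.125), T372 (0.0580), T55 (0.0903), T646 (0.0598) and T920 (0.0550).

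**Figure D3:**
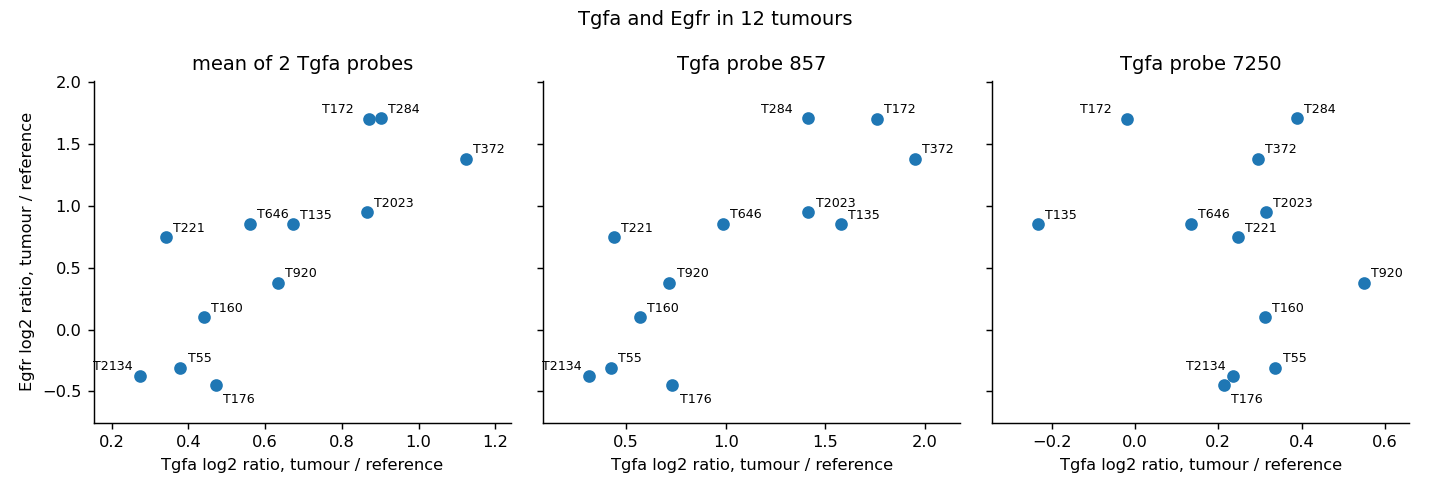
Egfr log2 ratio (y axis) against Tgfa log2 ratio (x axis) in 12 tumours, 1 point a tumour, for the mean of 2 Tgfa probes and for each probe alone. The relation with r = 0.813 is seen for the mean and for probe 857 (r = 0.824) and not for probe 7250 (r = -0.209).

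The other ligands of EGFR were not shown to follow it. Hbegf with Egfr gave r = 0.410 (rho = 0.329; permutation p = 0.185 and 0.297, adjusted p = 0.665 and 0.694). Its r was 0.491 without T221 and T646, and 0.297 without T176 alone. T284 shows the contrast, with the highest Egfr and a Hbegf of -0.03. Ereg with Egfr gave r = -0.404 (rho = -0.392; permutation p = 0.190 and 0.209, adjusted p = 0.665 and 0.694). Its r was -0.404 without T176 and T920, but -0.238 without T176 alone. Btc with Egfr gave r = -0.412 (rho = -0.364; permutation p = 0.189 and 0.247, adjusted p = 0.665 and 0.694), which rested on T172 and T920, without which r was -0.078.

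Neuregulin and its receptors were not called either. Nrg1 with Erbb4 gave r = 0.515 and rho = 0.587 (permutation p = 0.0888 and 0.0498, adjusted p = 0.622 and 0.523), and r = 0.667 without T176 and T221. Nrg1 with Erbb3 gave r = 0.327 and rho = 0.252 (permutation p = 0.307 and 0.428, adjusted p = 0.680 and 0.818), and r = 0.059 without those tumours. For Erbb4, r was 0.181 with Hbegf, -0.046 with Btc and 0.292 with Ereg (rho 0.084, -0.056 and 0.154). Their permutation p were 0.572, 0.888 and 0.356 for r (adjusted p = 0.924, 0.967 and 0.680) and 0.801, 0.869 and 0.634 for rho (adjusted p = 0.885, 0.913 and 0.885). Without the 2 tumours farthest from the median of the ligand they were 0.192, -0.295 and 0.536.

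Receptor pairs were loosely related at most. Egfr with Erbb3 gave the highest r, 0.536 (rho = 0.510; permutation p = 0.0743 and 0.0930, adjusted p = 0.622 and 0.651), and 0.463 without T176 and T2134. Erbb2 with Erbb3, the dimer known for strong signalling, gave r = 0.051 (rho = -0.105; permutation p = 0.874 and 0.752, adjusted p = 0.967 and 0.885), and -0.021 without T221 and T920. With the probe of the largest SD, r was 0.307 for Egfr with Erbb3 and 0.330 for Erbb2 with Erbb3. None of the 5 relations with a cell type score was called. The luminal score gave r = 0.367 with Erbb2 (rho = 0.217; permutation p = 0.257 and 0.500, adjusted p = 0.680 and 0.874), which turned to -0.193 without T176 and T920. With Erbb3 the luminal score gave r = -0.054 (rho = -0.336; permutation p = 0.943 and 0.284, adjusted p = 0.967 and 0.694), and -0.491 without those tumours. With Erbb4 it gave r = -0.104 (rho = -0.364; permutation p = 0.686 and 0.244, adjusted p = 0.961 and 0.694), and -0.586 without the same tumours. The basal score with Egfr gave r = 0.013 (rho = -0.140; permutation p = 0.967 and 0.667, adjusted p = 0.967 and 0.885), and -0.166 without T135 and T2023. The mesenchymal score with Nrg1 gave r = -0.041 (rho = -0.098; permutation p = 0.897 and 0.765, adjusted p = 0.967 and 0.885), and 0.511 without T176 and T646. Ereg with Btc, neighbours in the ligand gene cluster, gave r = -0.051 (rho = -0.00699; permutation p = 0.885 and 0.991, adjusted p = 0.967 and 0.991), and 0.362 without T176 and T920.

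Other genes of the pathway were taken from 6 lists with 78 genes, of which 71 were measured. Of these 23 differed between tumours (32.4%, against 18.3% of all genes tested). The shares ran from 1 of 8 sheddases and their regulators to 9 of 13 transcripts known to be induced by ERK.

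**Figure D4:**
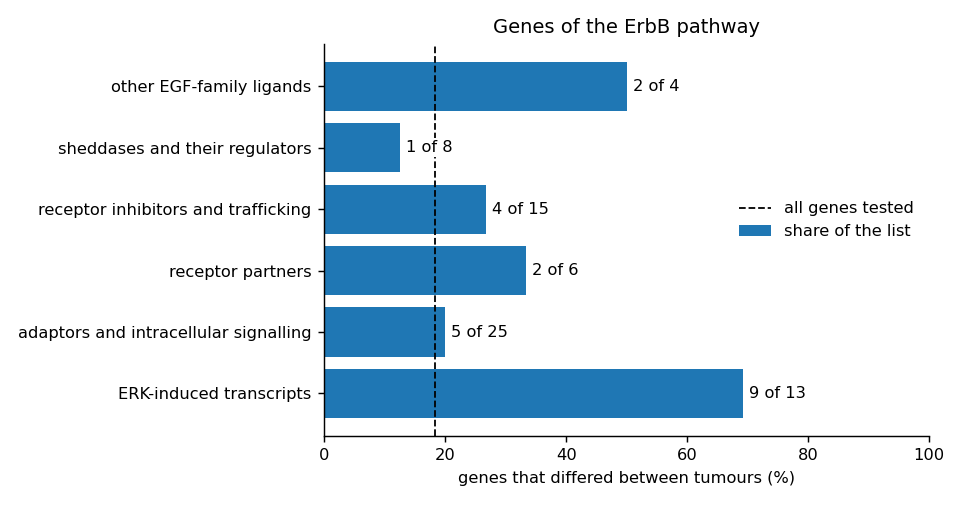
Share of measured genes that differed between tumours (x axis, percent; limma adjusted p under 0.05) in 6 lists of ErbB pathway genes, with the share among all genes tested, 18.3%, as a dashed line. The ERK-induced transcripts reach 9 of 13 genes, and sheddases and their regulators 1 of 8.

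Of the other EGF-family ligands, 2 of 4 measured genes differed between tumours, and they differed in which tumours were high. Epgn, the gene of epigen, was high in T2023 (2.65), T221 (2.23) and T372 (1.41) and low in T920 (-1.19), T55 (-1.05) and T284 (-1.01; limma adjusted p = 0.00760). Egf itself was below the reference in every tumour but T284 (0.19), from -2.50 in T135 (adjusted p = 0.0225). T2023 was highest in Epgn and near the lowest in Egf, at -2.49. Squamous scores were 2.83 in T2023, 2.84 in T221 and 1.83 in T372, but T135, with a score of 1.99, held Epgn at -0.003, and the scores ran from -2.25 in T284 to 2.84. Their part in the Epgn ratio was not tested. Nrg3 and Nrg4 were not called.

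Among 8 sheddases and their regulators, Timp3, an inhibitor of ADAM17, was the 1 called gene, lowest in T172 (-1.84) and highest in T135 (1.502), next to T2023 (1.48; limma adjusted p = 0.000800). Without either array of T172, or without the second of T284, 2 of the 8 were called. Among all genes the share called was then 23.8% and 23.1% without the first and second array of T172 and 19.3% without that of T284. None of the proteases on the list was called by the F-test. The protease gene Adam12 was called in T176 against the other 11 (2.08 against -0.30, a difference of 2.38 ± 0.44, SE). The mesenchymal score was 2.41 there, but its markers were not uniform. Postn was lowest in T176 (-4.24) and Col3a1 (-3.30) lay below its median of -2.95. The part of mesenchymal cells in the Adam12 ratio was not tested. Adam17 ranged from -0.44 to 0.43 (adjusted p = 0.894) and Adam10 from -0.32 to 0.61 (adjusted p = 0.752).

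Among 15 receptor inhibitors and trafficking genes, 4 were called. Lrig1, a membrane protein that lowers ErbB receptor levels, stood at -3.78 in T176 and -1.12 to 0.99 elsewhere. T176 minus the other 11 was -3.79 ± 0.66 (SE; limma adjusted p = 0.00426). Errfi1, the feedback inhibitor Mig6, was highest in T646 (1.94), T172 (1.32) and T284 (1.07) and lowest in T221 (-0.62). Spry1 ranged from -1.27 in T221 to 0.74 in T172. Lrig3 ranged from -2.04 in T2134 to 0.57 in T2023 and lost its call without T2023 (adjusted p = 0.0551).

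Of 6 receptor partners 2 were called. Muc4, a mucin that binds ERBB2, ranged from -0.91 in T646 to 2.56 in T2134 (limma adjusted p = 0.000800), and the kinase gene Ptk6 from -0.65 in T176 to 1.99 in T221. Of 25 measured adaptors and intracellular genes 5 were called, a share near that of all genes, and 3 were without T176, where 14.9% of all genes were called. In T176 against the other 11, Pik3r1, a PI3K subunit gene, was also called (-1.002 against 1.07, a difference of -2.07 ± 0.32, SE; limma adjusted p = 0.00186). Nras stood at 3.58 in T172, the mean of 2 arrays, and at -0.68 to 0.38 in the other 11, higher by 3.70 ± 0.39 (SE; limma adjusted p = 0.00214). Nck1 ranged from -0.79 in T176 to 2.70 in T284, and Stat5a, which acts in alveolar development, from -0.18 in T176 to 2.10 in T920, with the call of Stat5a lost without T176 (adjusted p = 0.0545) or T920 (0.0508).

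The ERK-induced transcripts had 9 of 13 genes called, and 7 without T176, where the share among all genes fell as well, to 14.9%. Dusp6, the ERK phosphatase, ranged from -1.42 in T176 to 3.25 in T646, with T172 (2.79), T284 (2.62) and T920 (2.03) next (limma adjusted p = 0.000700). Phlda1 stood at -1.26 in T176 and 1.95 to 4.45 elsewhere, a difference of -4.56 ± 0.76 (SE; limma adjusted p = 0.00339). Ier3 ranged from 1.29 in T135 to 5.08 in T172, and Ccnd1, the gene of cyclin D1, from -0.60 in T2134 to 2.20 in T2023. Of the 9 called genes 5 were lowest in T176, where the luminal score was -3.55, and the part of the lower luminal score was not tested. Other genes of the list went the other way there. Ccnd1 (1.97) and Plaur (0.76) lay above their medians of 1.13 and 0.22, and Dusp5, not called, was highest in T176 (0.49). Calls lost when 1 array was left out were those of Plaur (limma adjusted p = 0.173 without T646), Dusp4 (0.0701 without T176), Myc (0.0561 without T2134, 0.0557 without T176 and 0.0535 without T160) and Etv4 (0.0527 without T920).

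Of the 6 neighbours of Erbb2 on chromosome 11, taken by gene order in GRCm38.p6, Grb7 and Mien1 differed between tumours (18.3% of all genes did) and Erbb2 was not shown to. Grb7, which lies close to Erbb2 and encodes an adaptor that binds the receptor, ranged from -3.60 in T176 to 2.14 in T646 (limma adjusted p = 0.000700), while Erbb2 in those tumours stood at 0.028 and 0.053. Grb7 lost its call without T176 (adjusted p = 0.220). Mien1 was highest in T284 (2.18) and T172 (1.88) and lowest in T176 (0.016; adjusted p = 0.0177), while Erbb2 stood at 0.44, 0.50 and 0.028. Over 12 tumours, as a description of ratios from the same arrays, Erbb2 correlated at r = 0.121 with Grb7, 0.046 with Mien1, 0.031 with Pgap3, -0.012 with Pnmt and -0.189 with Ikzf3, and over 11 tumours at -0.458 with Tcap. Pgap3, Pnmt, Ikzf3 and Tcap were not called.

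**Figure D5:**
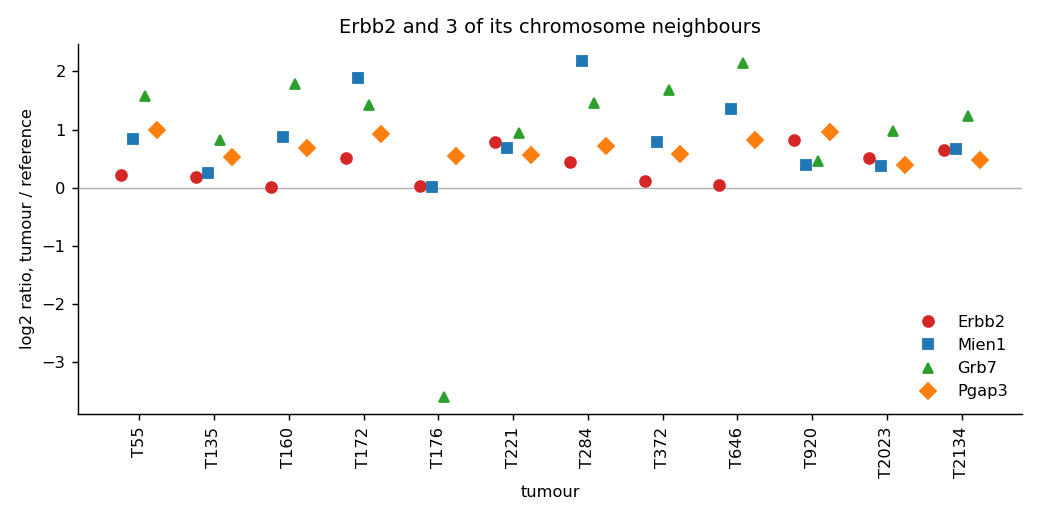
The log2 ratio of tumour over reference (y axis) of Erbb2 and its neighbours Mien1, Grb7 and Pgap3 in each of 12 tumours (x axis), with points of a tumour set side by side. Grb7 falls to -3.60 in T176, where Erbb2 is at 0.028, and Mien1 peaks in T284 at 2.18, where Erbb2 is at 0.44.

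For Egfr, 1 of 6 neighbours was called, near the 18.3% of all genes. This was Cnrip1, from -2.37 in T920 to -0.21 in T176 (limma adjusted p = 0.0413). Egfr correlated with the 6 at r between -0.523 (Vstm2a) and -0.023 (Plek), with Cobl (-0.289), Sec61g (-0.424), Cnrip1 (-0.203) and Ppp3r1 (-0.039) between.

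The genes most like each member were those with the highest Pearson's r over 12 tumours among 16617 genes, given as a description. For Egfr they were Prrg4 (0.928), Anxa9 (0.899) and Cpm (0.899). Anxa9 and Cpm were themselves called between tumours and Prrg4 was not (limma adjusted p = 0.517). For Nrg1 they were Ccdc90b (0.943), Zfp773 (0.928) and Nqo1 (0.916), of which Nqo1, a quinone reductase gene, was called. For Hbegf they were 5730416F02Rik (0.926), Tmem160 (0.887) and Clic1 (0.876), none of them called. Egfr was the second of the 3 genes most like Tgfa, at 0.813, between Olfr633 (0.816) and Fads2b (0.811). Tgfa and the remaining 5 members were not called, so their nearest genes match values that were not shown to differ between tumours. For those 5 they were Olfr119 (0.900), Slc17a1 (0.876) and Zfp354b (0.875) for Erbb2, Phf21a (0.848), Rexo2 (0.831) and Agtpbp1 (0.824) for Erbb3, and Slc4a9 (0.946), Slc22a12 (0.919) and Ap2a1 (0.913) for Erbb4. They were also Nr0b2 (0.931), Csrnp3 (0.924) and Olfr17 (0.914) for Ereg, and Olfr191 (0.930), Tln2 (0.925) and Tor3a (0.903) for Btc. Of these 15 genes Csrnp3 alone was called (limma adjusted p = 0.00684). The likeness to Btc leaned on T172, without which r was 0.802, 0.793 and 0.853.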

How the data were processed

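Tumour RNA of 12 tumours was measured on 14 two-colour arrays. Per the labels, a Qiagen RNeasy kit served for RNA, with the tumour in Cy5 and the reference in Cy3. The deposited values are log2 ratios; base 2 was inferred from their range, -9.19 to 7.42, while their background correction, scaling and spot filters by the authors are not given in the sources used. The direction comes from the dyes; pairs of arrays correlated at 0.465 or more over all probes. Of all values 0.172% were missing.

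Of 22575 probes, 18658 had 1 gene symbol, 30 several and 3887 none. Symbols were updated through RefSeq (GRCm38.p6; 18445 by Entrez identifier, 24 by accession). Probes of a gene measured on an array were averaged, and genes needed values on 12 of 14 arrays. limma 3.58.1 in R 4.3.3 fitted 12 tumours to 14 arrays (16877 genes), where repeat arrays of T172 and T284 give the spread within a tumour (whether this spread is biological or technical is unknown, since the labels do not say what was repeated), and each tumour against the other 11, with arrays of a tumour averaged. P-values were adjusted after Benjamini-Hochberg. The fits were tested on simulated data. Correlations used 100000 permutations (scipy 1.17.1, Python 3.11.15), two-sided.

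The members and lists were chosen with earlier results of these data known. Named are the members, up to 4 called genes per list with the largest SD (further list genes were chosen after their values were seen), the 3 genes most like each member, up to 3 neighbours on each side of Erbb2 and Egfr, and relations that were called, that join a receptor and its ligand, or that change sign without 2 tumours. Alternatives were array scaling, probe choice, the prior, missing values, the threshold, the second arrays, and leaving out each array. Testing each probe on its own, and each Tgfa probe with Egfr, was chosen after seeing the data.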

Additional observations from a re-analysis of the deposited data

How the results depend on the processing

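No paired analysis was possible because each tumour is its own group and only T172 and T284 had a second array. The count of 3 genes that differed between tumours was 1 at an adjusted p under 0.01, and 2 to 4 when each array was left out. With a term for the second arrays the same count was 3, although calls over all genes rose from 3094 to 7124 (42.4% of genes tested), and calls among sheddases to 5, inhibitors to 7, partners to 4 and adaptors to 13. The cause was not tested. The count of genes called in 1 tumour was 0, and 0 to 1 when each array was left out, the 1 being Btc in T172 without its first array (-2.47 against -0.033, adjusted p = 0.00792). The count of called relations was 1, 0 with quantile normalization, and 0 to 1 when each array was left out, where fewer tumours enter the test.

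Of 21 relations 9 changed sign in some setting and 12 in none. With each array left out, r ranged from -0.154 to 0.101 for Btc with Erbb4, -0.035 to 0.292 for Egfr with Erbb2, -0.144 to 0.194 for Erbb2 with Erbb3 and -0.413 to 0.334 for Ereg with Btc. It ranged from -0.102 to 0.081 for the basal score with Egfr, -0.534 to 0.023 for the luminal score with Erbb3 and -0.345 to 0.308 for the mesenchymal score with Nrg1. Erbb2 with Erbb3 was -0.158 with quantile normalization and -0.105 as rho, and the basal score with Egfr was -0.140 as rho. With the probe of the largest SD the luminal score with Erbb4 was 0.263 and the mesenchymal score with Nrg1 0.038. Tgfa probe 7250 alone gave -0.209 with Egfr. The cause was not tested. Of the values recomputed, 189 adjusted p-values and 363 correlations kept their direction and side of the threshold. Of the other adjusted p-values 4 lost a call and 1 gained it, and of the other correlations 30 changed sign and 8 lost a call. Most correlations kept their side of the threshold by staying uncalled. Of the counts 164 stayed within 1.5 times the main count and 18 did not. The ratios carry no signal over background, which limits what small differences can show.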
